A study of Mus musculus with 8 samples.

Results

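The 6 mature miRNAs listed here, of the miR-99, miR-100 and miR-125 families, were followed in mouse skin: mmu-miR-99b-5p, mmu-miR-125a-5p and mmu-miR-125a-3p from a cluster on chromosome 17, and mmu-miR-99a-5p, mmu-miR-100-5p and mmu-miR-125b-5p from the paralogous clusters on chromosomes 16 and 9. They were taken by name, as the 6 listed members among 1881 miRNAs on the array, and were listed with earlier results of these data known. All 6 were detected on all 8 arrays. The NcstnΔKC group (4 samples) consisted of male Ncstn flx/flx; Krt14 CreER+/- mice that were gavaged with tamoxifen, starting when 8 weeks old, at 20 mg per kg body weight on each of 5 days, with further doses at intervals of 10 days. Normal skin (4 samples) came from mice that carried the same floxed alleles and Krt14 CreER transgene and received corn oil, so that tamoxifen and loss of Ncstn cannot be told apart. Skin of both groups was excised at 16 weeks. Nicastrin, the product of Ncstn, belongs to the γ-secretase complex that cleaves Notch receptors, and Krt14 CreER is driven by a promoter of basal keratinocytes, whereas the RNA came from whole skin. Ncstn mRNA was not measured, and the labels leave unstated if each sample was a different mouse. The p-values therefore reflect sample-to-sample spread, which may be technical.

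Mammals hold these genes as an ancient arrangement in which a miR-99 or miR-100 hairpin, a let-7 hairpin and a miR-125 hairpin lie next to each other, and 3 such clusters exist in the mouse. miR-99 and miR-100 are known to repress components of insulin-like growth factor and mTOR signalling, and miR-125 is the vertebrate counterpart of the worm developmental timing RNA lin-4. In mouse skin miR-125b is known as abundant in hair follicle stem cells, where it restrains differentiation.

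The mature sequences are shown because 2 seeds, the bases 2 to 8 that pair with targets, are each shared by members of different clusters. Seeds are in capitals, and all 6 members were found in the RefSeq table (GRCm38.p6). The first 3 share the seed of the miR-99 family, the next 2 the seed of the miR-125 family, and the last, from the other arm of the miR-125a hairpin, has a seed of its own.
miR-99b-5p: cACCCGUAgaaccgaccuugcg
miR-99a-5p: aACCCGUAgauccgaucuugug
miR-100-5p: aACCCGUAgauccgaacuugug
miR-125a-5p: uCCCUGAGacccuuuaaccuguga
miR-125b-5p: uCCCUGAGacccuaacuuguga
miR-125a-3p: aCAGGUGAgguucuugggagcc

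miR-99a-5p and miR-100-5p differ by 1 base, U16A, with the base of miR-99a-5p first and positions counted from 1 at the 5′ end. miR-99b-5p differs from miR-99a-5p at 4 positions (A1C, U11A, U16C and U21C, miR-99a-5p first). miR-125a-5p and miR-125b-5p are identical over their first 13 bases and are 3 edits apart in all. miR-99b-5p and miR-125a-5p, neighbours in the genome, are 12 edits apart. The chromosome 17 hairpins Mir99b, Mirlet7e and Mir125a lie within 692 bases (17830188 to 17830879, GRCm38.p6), inside the span of the protein-coding gene Spaca6. Mir100, Mirlet7a-2 and Mir125b-1 spread over 50578 bases of chromosome 9 (41531425 to 41582002), inside the span of the long noncoding RNA gene Mir100hg. Mir99a, Mirlet7c-1 and Mir125b-2 spread over 47408 bases of chromosome 16 (77598936 to 77646343), and the RefSeq gene table lists no other gene that overlaps this stretch. miR-125b-5p has the same sequence from Mir125b-1 and Mir125b-2, so its signal belongs to both clusters.

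The array's probes pair with the 3′ part of each miRNA. They are shown for miR-99a-5p and miR-100-5p, whose 19-base probes differ by 1 letter, so that part of the signal of each may come from the other.
miR-99a-5p probe: cacaagatcggatctacgg
miR-100-5p probe: cacaagttcggatctacgg
Set against the other miRNA of the pair, each of these probes leaves 1 base unpaired. The probes of miR-99b-5p leave 3 bases unpaired against miR-99a-5p or miR-100-5p, those of miR-125a-5p leave 6 or 7 against miR-125b-5p, and those of miR-125b-5p leave 5 against miR-125a-5p, in ungapped pairings. The probes of miR-125b-5p leave fewer against miR-100-5p (3 or 4), and 4 or 5 against miR-99a-5p.

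With the scaling described below, miR-99b-5p and miR-125a-5p of the chromosome 17 cluster were higher in NcstnΔKC skin, and their paralogues with the same seeds were lower. When the scaling percentile was taken over all probes, miR-99a-5p and miR-125b-5p were instead higher, uncalled. miR-99b-5p was 1.52-fold and miR-125a-5p 1.43-fold higher, whereas miR-100-5p was 2.10-fold, miR-99a-5p 1.64-fold and miR-125b-5p 1.44-fold lower. miR-125a-3p did not pass the test. Levels are log2 of the summed probe intensity after division by each array's 75th percentile over the 301 probes detected on all arrays, so that 0 is that percentile. Groups were compared with limma, with Benjamini-Hochberg adjustment over all 222 miRNAs tested and a threshold of 0.05. Of those 222, 42.8% passed (14.9% higher, 27.9% lower), and 36.9% had groups that did not overlap (13.5% higher, 23.4% lower). Among the members 5 of 6 passed, 2 higher and 3 lower, and the groups of the same 5 did not overlap. Since the members were chosen with earlier results of these data known, this count is no independent support. The median log2 difference was -0.29 for the members and -0.23 for all tested miRNAs.

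miR-99b-5p had levels of -2.20, -1.81, -2.03 and -2.12 in NcstnΔKC 1 to 4, against -2.77, -2.69, -2.55 and -2.55 in normal 1 to 4. The lowest NcstnΔKC array stood above the highest normal array. Its log2 difference was 0.60 ± 0.14 (SE, n = 4 per group, limma adjusted p = 0.01), or 0.84 relative to the median of tested miRNAs. The rise was also present before scaling: the summed processed intensity was 253, 264, 260 and 247 in NcstnΔKC 1 to 4, against 187, 189, 210 and 224 in normal 1 to 4.

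miR-125a-5p had levels of -1.21, -0.74, -1.01 and -1.11 in NcstnΔKC 1 to 4, against -1.66, -1.58, -1.41 and -1.47 in normal 1 to 4, with no overlap. Its log2 difference was 0.51 ± 0.15 (SE, n = 4 per group, limma adjusted p = 0.0249), or 0.74 relative to the median of tested miRNAs. Its unscaled intensity was 501, 552, 527 and 496 in NcstnΔKC 1 to 4, against 403, 406, 464 and 476 in normal 1 to 4. Unscaled, the groups were also separate, but by a narrower gap.

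The calls of the rising pair depended on how arrays were scaled, because the scaling percentile itself was 1160, 922, 1061 and 1070 on NcstnΔKC 1 to 4, against 1275, 1215, 1231 and 1314 on normal 1 to 4. With scaling on 4 control RNAs that had signal on every array, which the labels do not identify as added spike-ins, miR-99b-5p differed by 0.30 (adjusted p = 0.151) and miR-125a-5p by 0.21 (adjusted p = 0.313), and with no scaling they differed by 0.34 (adjusted p = 0.0473) and 0.25 (adjusted p = 0.132), all by limma. The call of miR-125a-5p was also lost without NcstnΔKC 2 (0.42, adjusted p = 0.0565), NcstnΔKC 3 (0.51, 0.0702) or normal 1 (0.47, 0.0518).

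miR-125a-3p, from the other arm of the miR-125a hairpin, was not called. The hairpin is shown with both mature arms in capitals, the 5p arm first (GRCm38.p6, chr17:17830812-17830879, plus strand).
Mir125a: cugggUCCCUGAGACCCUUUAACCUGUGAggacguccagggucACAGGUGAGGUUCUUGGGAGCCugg
miR-125a-3p had levels of -2.26, -2.60, -2.70 and -2.11 in NcstnΔKC 1 to 4, against -2.20, -2.17, -2.75 and -2.32 in normal 1 to 4, and the groups overlapped over nearly their whole range. Its log2 difference was -0.06 ± 0.20 (SE, n = 4 per group, limma adjusted p = 0.793). Of its 4 probes, 1 was detected on all 8 arrays, and the other 3 on at most 1 array of each group. Within arrays, the log2 ratio of the 5p to the 3p arm was 1.05, 1.86, 1.69 and 1.0 in NcstnΔKC 1 to 4, against 0.54, 0.59, 1.34 and 0.85 in normal 1 to 4. That ratio differed by 0.57 ± 0.29 (SE), with overlapping groups and an exact two-sided permutation p of 0.114 (0.114 after Benjamini-Hochberg adjustment over the 7 ratios compared), so a difference between the arms was not detectable with these arrays.

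**Figure D1:**
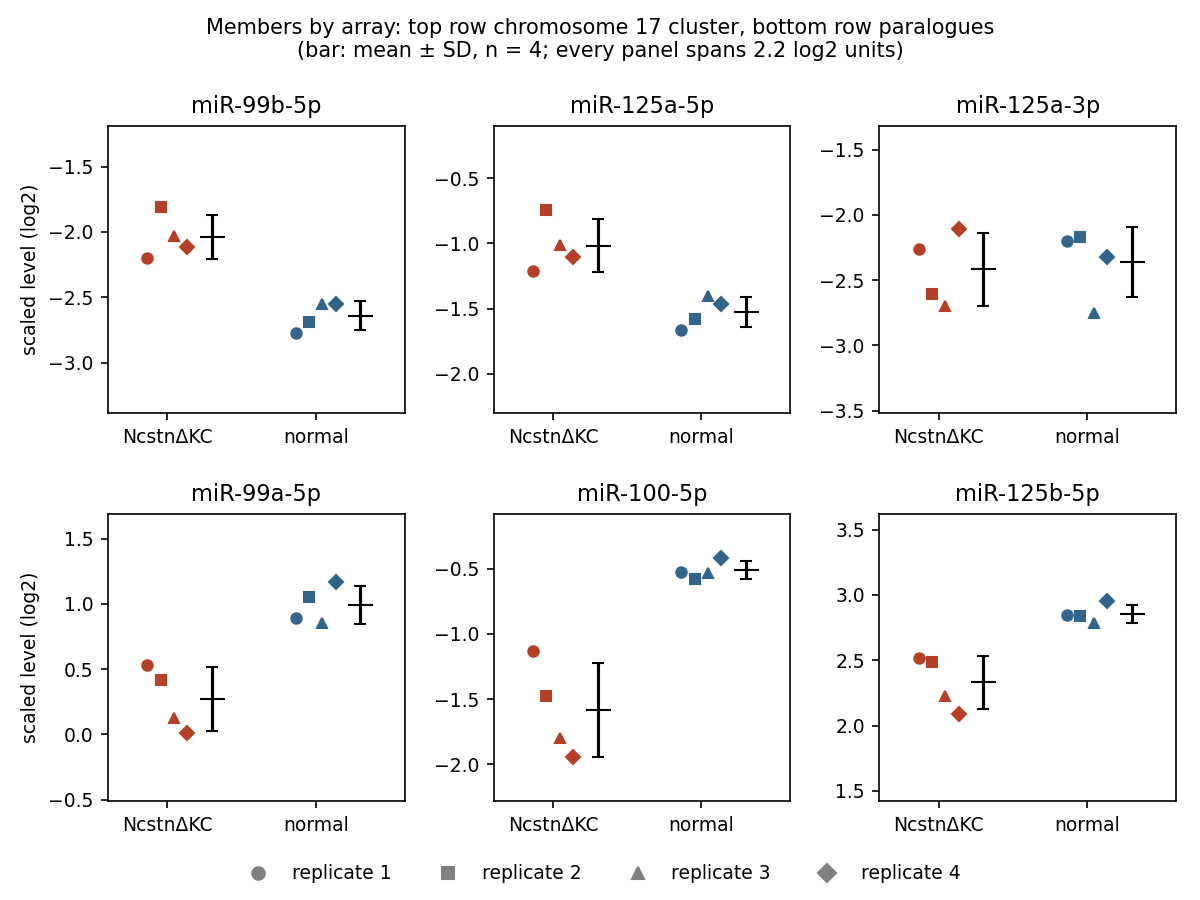
Scaled log2 level (vertical axis) of each member on each array, with NcstnΔKC left and normal right in every panel, marker shape for the replicate, and a bar for mean ± SD (n = 4). miR-99b-5p and miR-125a-5p lie higher in all 4 NcstnΔKC arrays, miR-99a-5p, miR-100-5p and miR-125b-5p lie lower in all 4, and miR-125a-3p overlaps.

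The falls were in the paralogues with the same seeds. miR-99a-5p had levels of 0.53, 0.42, 0.13 and 0.01 in NcstnΔKC 1 to 4, against 0.89, 1.05, 0.85 and 1.17 in normal 1 to 4. All NcstnΔKC arrays lay below all normal ones, and the log2 difference was -0.72 ± 0.16 (SE, n = 4 per group, limma adjusted p = 0.00972), or -0.48 relative to the median of tested miRNAs. It passed without each array in turn (adjusted p from 0.00647 to 0.0384).

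With the main scaling, miR-100-5p had the largest log2 difference among the members. Its levels were -1.13, -1.48, -1.79 and -1.94 in NcstnΔKC 1 to 4, against -0.52, -0.58, -0.53 and -0.41 in normal 1 to 4. The 4 normal arrays lay close together (SD 0.07) and the NcstnΔKC arrays spread widely below them (SD 0.36), NcstnΔKC 1 being nearest to normal skin. The log2 difference was -1.07 ± 0.19 (SE, n = 4 per group, limma adjusted p = 0.00402), or -0.84 relative to the median of tested miRNAs (0.84 for miR-99b-5p). Unscaled intensity was 530, 331, 306 and 279 in NcstnΔKC 1 to 4, against 887, 813, 851 and 986 in normal 1 to 4.

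miR-125b-5p had levels of 2.52, 2.49, 2.23 and 2.09 in NcstnΔKC 1 to 4, against 2.85, 2.84, 2.78 and 2.95 in normal 1 to 4, with no overlap. Its log2 difference was -0.53 ± 0.14 (SE, n = 4 per group, limma adjusted p = 0.0203), or -0.29 relative to the median of tested miRNAs, the smallest distance from that median among the 5 members called. The call was lost without NcstnΔKC 3 (-0.49, adjusted p = 0.0689), NcstnΔKC 4 (-0.45, 0.0523) or normal 4 (-0.49, 0.0536), and with quantile normalization (-0.23, 0.126).

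When miRNAs that failed the detection filter were tested too, 19 of all miRNAs passed and 0 of the 5 members did (limma adjusted p from 0.0615 for miR-99b-5p to 0.142 for miR-125a-5p, with 0.1 for miR-99a-5p, 0.0619 for miR-100-5p and 0.105 for miR-125b-5p). With the percentile taken over all probes 0 of the 5 passed, and miR-99a-5p and miR-125b-5p turned to 0.15 and 0.34, while the median of all tested miRNAs moved to 0.64.

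The direction of each called member was the same in every one of its probes. The 2 probes of miR-99b-5p differed by 0.57 and 0.67 on the scaled log2 scale, those of miR-125a-5p by 0.48 and 0.60, those of miR-99a-5p by -0.71 and -0.73, those of miR-100-5p by -1.01 and -1.28, and those of miR-125b-5p by -0.54 and -0.44. In all 10 of these probes the groups did not overlap, and the share over all probes was not taken. The probes make up sums that were already separate, so this count is no independent support. The brighter probe held from 69.2% of the signal (miR-99b-5p) to 90.3% (miR-125b-5p). The 4 probes of miR-125a-3p gave -0.17, 0.16, 0.06 and -0.20, with overlap in each. The spread between repeated spots of 1 probe on 1 array ran from 2.31% to 19.1% of the mean for the called members and up to 35.7% for miR-125a-3p.

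The comparison between the clusters was made as a ratio within each array, which does not depend on that array's scaling factor. The log2 ratio of miR-99b-5p to miR-99a-5p was -2.73, -2.22, -2.16 and -2.13 in NcstnΔKC 1 to 4, against -3.66, -3.74, -3.40 and -3.72 in normal 1 to 4. The ratio was thus 2.50-fold higher in NcstnΔKC skin (log2 difference 1.32 ± 0.16, SE; exact two-sided permutation p = 0.0286, the smallest that 70 labelings of 8 arrays allow; adjusted p = 0.0333 over the 7 ratios). Its 4 NcstnΔKC values lay above all normal values. In each ratio between clusters, 1 miRNA was higher and the other lower, both without overlap. The separation of the ratio and its p were therefore fixed by those levels and add no support to them. Probes differ in brightness, so the size of a ratio on 1 array does not give relative abundance, and only its difference between groups is read.

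The log2 ratio of miR-99b-5p to miR-100-5p was -1.07, -0.33, -0.23 and -0.18 in NcstnΔKC 1 to 4, against -2.25, -2.11, -2.02 and -2.14 in normal 1 to 4. It was 3.20-fold higher in NcstnΔKC skin (log2 difference 1.68 ± 0.21, SE; exact permutation p = 0.0286, adjusted p = 0.0333). The log2 ratio of miR-125a-5p to miR-125b-5p was -3.73, -3.23, -3.24 and -3.20 in NcstnΔKC 1 to 4, against -4.51, -4.42, -4.19 and -4.42 in normal 1 to 4. It was 2.05-fold higher (log2 difference 1.04 ± 0.14, SE; exact permutation p = 0.0286, adjusted p = 0.0333). The groups did not overlap in any of the 3 ratios, as in 34.9% of all 24531 pairs of tested miRNAs. Those pairs were not limited to miRNAs that differed in opposite directions, as the miRNAs of these 3 ratios did. With normexp background correction the 3 differences were 1.07, 1.16 and 0.94, each with an adjusted permutation p of 0.05, which is not under the threshold. In each of the 3, NcstnΔKC 1 stood apart from the other NcstnΔKC arrays on the side of normal skin. Without it the differences were 1.46, 1.88 and 1.16, and leaving out each array in turn gave 1.26 to 1.46 for the first, 1.59 to 1.88 for the next and 0.99 to 1.16 for the last.

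**Figure D2:**
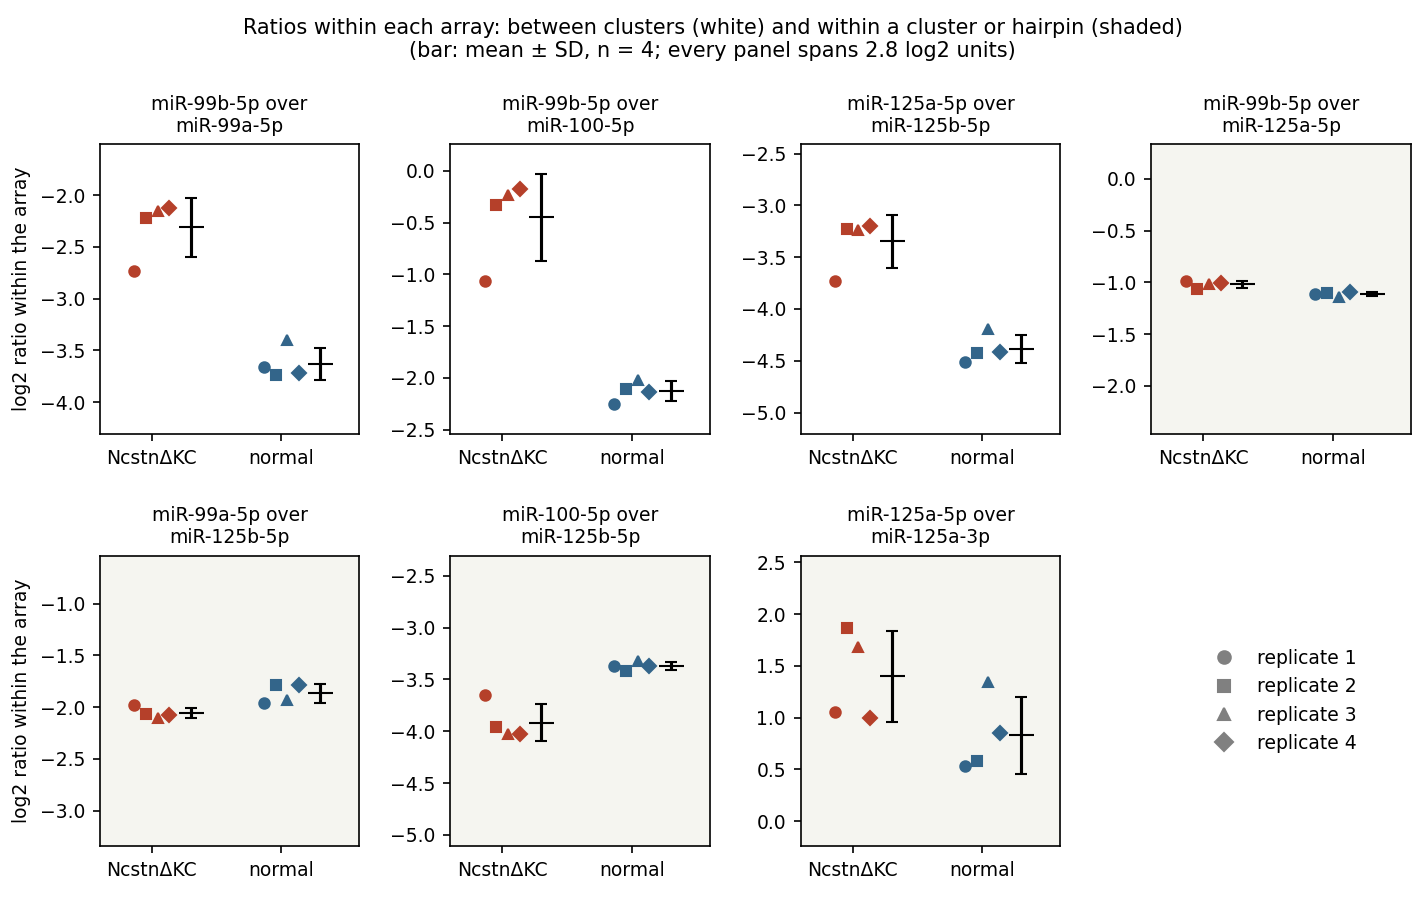
Log2 ratio of 2 miRNAs within each array (vertical axis), NcstnΔKC left and normal right, with marker shape for the replicate and bars for mean ± SD (n = 4). White panels set the chromosome 17 cluster against its paralogues, where NcstnΔKC values are higher by 1.32, 1.68 and 1.04. Shaded panels compare members encoded in the same cluster or hairpin, where the differences run from -0.55 to 0.57. In the shaded panels with miR-125b-5p, its signal belongs to both paralogous clusters.

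Ratios were also taken within a cluster or hairpin, and whether they differed less than those between clusters was not tested. The signal of miR-125b-5p belongs to both paralogous clusters, so its ratios to miR-99a-5p and miR-100-5p are not confined to 1 cluster. The log2 ratio of miR-99b-5p to miR-125a-5p was -0.99, -1.06, -1.02 and -1.01 in NcstnΔKC 1 to 4, against -1.11, -1.104, -1.14 and -1.09 in normal 1 to 4, a difference of 0.09 ± 0.02 (SE). The groups did not overlap (exact permutation p = 0.0286, adjusted p = 0.0333), but the difference was 0.013 with normexp background correction (adjusted p = 0.543). The ratio of miR-99a-5p to miR-125b-5p differed by -0.19 ± 0.05 (SE, same p and adjusted p), a call lost with cyclic loess, normexp, the brightest probe and the series matrix values. miR-100-5p fell more than miR-125b-5p, with a ratio of -3.65, -3.96, -4.02 and -4.03 in NcstnΔKC 1 to 4, against -3.37, -3.42, -3.32 and -3.37 in normal 1 to 4, and a difference of -0.55 ± 0.09 (SE; exact permutation p = 0.0286, adjusted p = 0.0333). With normexp that difference was -0.20 and its adjusted permutation p 0.05, not under the threshold.

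The members also varied together within each group. After each group's mean was removed, miR-99b-5p and miR-125a-5p correlated over the 8 arrays with r = 0.993. In the same way miR-99a-5p and miR-125b-5p gave r = 0.945, miR-100-5p and miR-125b-5p 0.921, and miR-99a-5p and miR-100-5p 0.876. Between these 2 sets r ran from -0.0748 to 0.210, and miR-125a-3p gave -0.699 with its own 5p arm. For miR-99a-5p, miR-100-5p and miR-125b-5p, high values were not particular to cluster partners. By the same measure miR-203-5p, from outside these clusters, gave 0.952 with miR-125b-5p. miR-195a-5p gave 0.809 with miR-100-5p, and miR-204-5p 0.792 with miR-99a-5p. For the chromosome 17 pair, miR-25-3p gave 0.744 with miR-99b-5p and 0.763 with miR-125a-5p, and miR-92a-3p gave 0.731 and 0.732. These are descriptions over 8 arrays, which share each array's scaling factor. The probes of miR-99a-5p, miR-100-5p and miR-125b-5p pair in part with each other's miRNA, so shared signal may enter their correlations. miR-99b-5p gave r of 0.139 with miR-99a-5p and -0.0507 with miR-100-5p. Its probes leave 3 bases unpaired against these, and those of miR-99a-5p and miR-100-5p leave 1 against each other. The pairs are therefore not comparable in this respect. The part of shared signal was not tested.

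**Figure D3:**
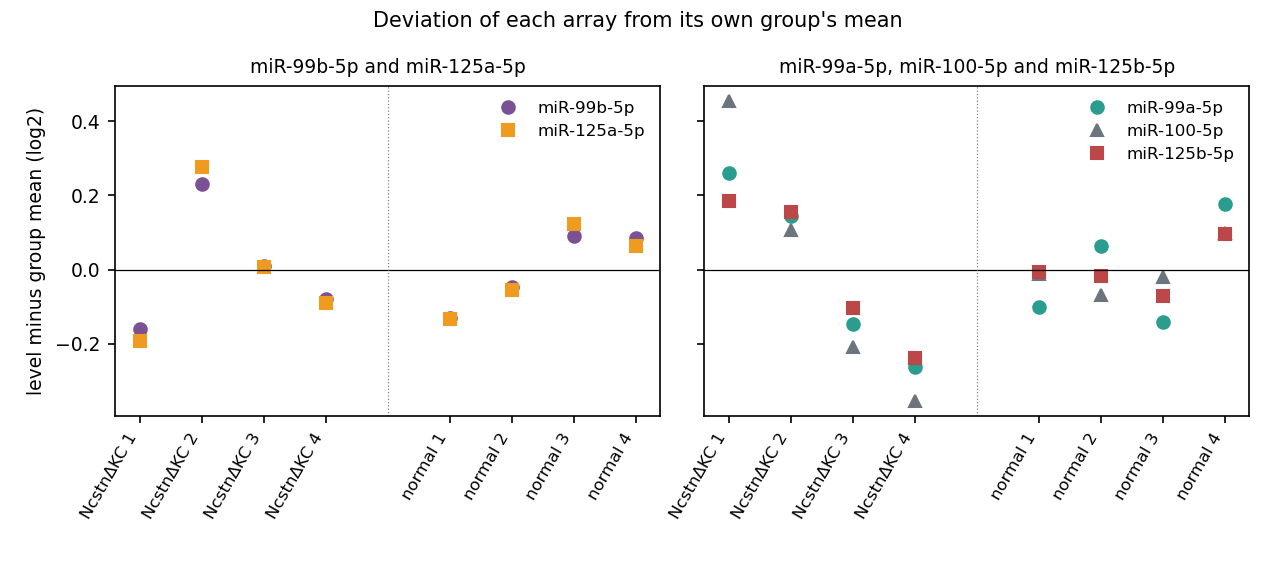
Level of each called member minus the mean of its group (vertical axis, log2) on each of the 8 arrays, NcstnΔKC arrays left of the dotted line and normal arrays right of it. The left panel holds the chromosome 17 members, whose points nearly coincide (r = 0.993), and the right panel their paralogues (r from 0.876 to 0.945).

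Among all 222 tested miRNAs, the pattern over the 8 arrays most like that of miR-99b-5p, by Pearson's r of the levels, was that of miR-125a-5p (r = 0.992), followed by miR-25-3p (0.965) and miR-92a-3p (0.965). For miR-125a-5p the nearest were miR-99b-5p, miR-25-3p (0.949) and miR-92a-3p (0.943). miR-125b-5p was nearest to miR-99a-5p (0.989), miR-203-5p (0.985) and miR-100-5p (0.984). miR-99a-5p had miR-204-5p (0.964) after miR-125b-5p and miR-100-5p, and miR-100-5p had miR-195a-5p (0.974) after miR-125b-5p and miR-99a-5p. For miR-125a-3p no r was above 0.785, its nearest being miR-5121 (0.785), miR-6973b-5p (0.693) and miR-1895 (0.640). These values include the difference between groups and carry no test.

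Of the 6 let-7 arms from these clusters 3 were tested, with 0 higher and 1 lower, beside the 27.9% called lower among all tested miRNAs. let-7e-5p, from between Mir99b and Mir125a, had levels of 0.45, 0.95, 0.64 and 0.57 in NcstnΔKC 1 to 4, against 0.33, 0.25, 0.51 and 0.42 in normal 1 to 4, and did not pass the test (log2 difference 0.28 ± 0.15, SE, n = 4 per group, limma adjusted p = 0.169). let-7c-5p, encoded beside Mir99a and also at Mirlet7c-2 on chromosome 15, was 1.54-fold lower (-0.63 ± 0.14, adjusted p = 0.00972), with no overlap. let-7a-5p, encoded beside Mir100 and elsewhere, differed by -0.23 ± 0.15 (adjusted p = 0.263). The ratio of let-7e-5p to let-7c-5p, picked out after its values were seen, was -3.26, -3.01, -3.02 and -3.0 in NcstnΔKC 1 to 4, against -4.07, -3.91, -3.90 and -4.02 in normal 1 to 4. This ratio carries no test. The opposite arms miR-99a-3p, miR-99b-3p, miR-100-3p, miR-125b-1-3p and miR-125b-2-3p were detected on 0 of 8 arrays, so the 2 sources of miR-125b-5p could not be separated by them.

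Of 4 related miRNAs outside these clusters, 2 were detected and tested, and 0 passed. miR-351-5p, which carries the miR-125 seed, and miR-670-5p, in which that seed is shifted by 1 base, were detected on 0 of 8 arrays. miR-10a-5p and miR-10b-5p, whose seed ACCCUGU is not that of the miR-99 family (ACCCGUA), differed by -0.10 ± 0.38 and -0.18 ± 0.15 (SE, n = 4 per group, limma adjusted p = 0.812 and 0.347).

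Some markers of several cell types differed between the groups, others did not, and most summed signals overlapped. In bulk skin fewer cells of a type and less of a miRNA per cell cannot be told apart. Among all tested miRNAs 14.9% were called higher and 27.9% lower. In the list of 5 fibroblast and smooth muscle miRNAs, miR-199a-3p (the brightest), miR-199a-5p and miR-214-3p were called higher (log2 difference 0.69, 1.06 and 1.21). miR-145a-5p was called lower (-1.14), and miR-143-3p was not called (-0.52). The summed scaled signal of this list ranged from 9.01 to 13.97 in NcstnΔKC skin, against 5.44 to 7.63 in normal skin (3 of 5 tested were called higher and 1 lower). That of 5 white blood cell miRNAs ranged from 2.74 to 8.45 against 1.86 to 2.604 (2 of 5 higher). The brightest of the white blood cell list, miR-223-3p, differed by 1.15 and was not called (limma adjusted p = 0.0644). The summed signal of 5 striated muscle miRNAs ranged from 6.44 to 38.6 against 17.6 to 84.6 (1 of 5 lower), with the highest NcstnΔKC value in NcstnΔKC 1. That of 7 keratinocyte miRNAs overlapped, at 22.7 to 30.3 against 22.5 to 27.4 (4 of 7 lower, all 7 detected on all 8 arrays). The brightest of the keratinocyte list, miR-205-5p, differed by 0.47 and was not called. The red blood cell pair ranged from 1.04 to 2.801 against 0.681 to 1.83 (1 of 2 lower), and the endothelial pair from 2.75 to 3.35 against 2.38 to 3.08 (0 of 1 tested called). In the endothelial pair miR-126a-3p was detected on all 8 arrays and miR-126a-5p on 1 NcstnΔKC array and 0 normal arrays. Their part in the members' differences was not tested. All NcstnΔKC arrays lay in slide row 1 and all normal arrays in slide row 2 of 1 slide, and position on the slide and group therefore cannot be told apart.

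**Figure D4:**
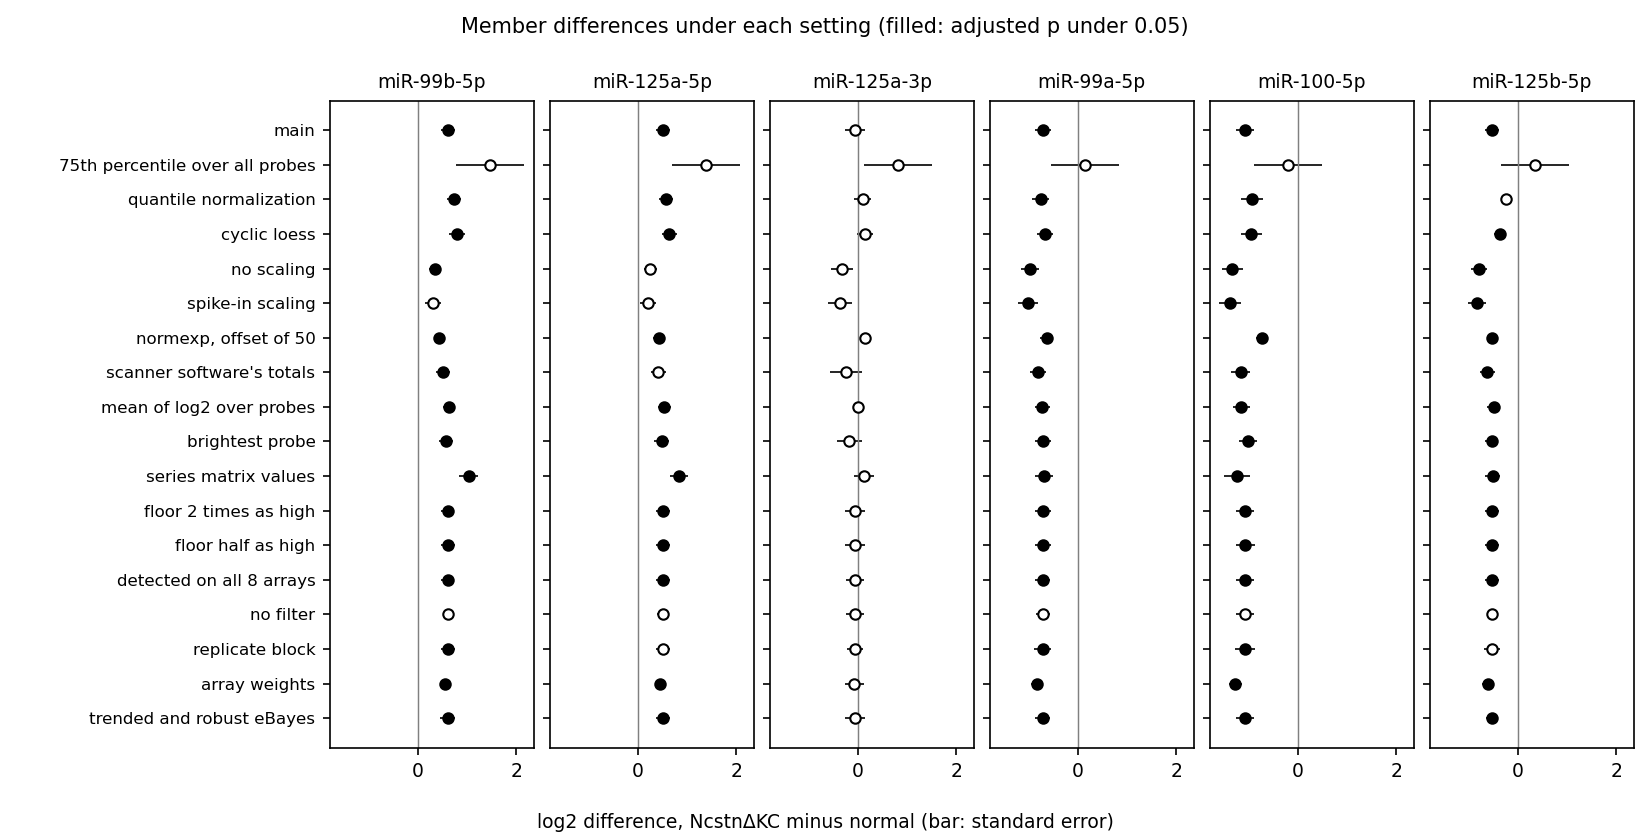
Log2 difference (NcstnΔKC minus normal, horizontal axis) of each member under the main setting and 17 alternatives (rows), with bars for the standard error and filled points for adjusted p under 0.05. miR-99a-5p and miR-125b-5p lie below 0 in all rows but the percentile over all probes (0.15 and 0.34), miR-100-5p in all rows, and miR-99b-5p and miR-125a-5p lie above 0 in all rows.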

How the data were processed

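Small RNA of 8 skin samples (4 NcstnΔKC, 4 normal) was hybridised to 1-colour miRNA arrays on 1 slide. The deposited intensity values per spot had been background-subtracted by Agilent Feature Extraction 10.7.1.1, with annotation on mm9, per the file headers. The authors also deposited a table of log2 values per miRNA, with a normalization that the sources used here do not give. Its column medians were 3.24 to 3.25, and it served as an alternative.

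Control spots and outlier spots were left out. Spots of a probe were averaged, probes of a miRNA summed, and arrays divided by their 75th percentile over probes detected on all arrays. A floor of 0.0318 was set before log2 was taken. A probe was called detected on an array where 50% or more of its spots were marked well above background. A miRNA was tested if either group had it detected on each of its 4 arrays, with limma 3.58.1 (R 4.3.3). Ratios were compared by exact permutation, with a two-sided p that doubles the smaller tail. The procedure was tested on simulated data. The number of arrays limits the precision.

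The members and lists were chosen with earlier results of these data known. The miRNAs named are the 6 members, the opposite arms, let-7 neighbours and seed relatives, and for each member the 3 tested miRNAs with the highest Pearson r over the arrays. Marker lists were fixed by cell type. The alternatives covered scaling, background correction, probe summary, floor, detection filter, the authors' log2 values, array weights, moderation of variance, a replicate block and leaving out each array.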

Additional observations from a re-analysis of the deposited data

Results flagged for a closer look

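NcstnΔKC 1 lay far from the other NcstnΔKC arrays in all 3 ratios between the clusters, each time toward normal skin. The log2 ratio of miR-99b-5p to miR-99a-5p was -2.73 there, with a gap to the nearest NcstnΔKC array of 0.841 of the group's range, above Dixon's critical value of 0.829. That of miR-99b-5p to miR-100-5p was -1.07 (0.831 of the range), and that of miR-125a-5p to miR-125b-5p was -3.73 (0.924 of the range). The 3 ratios come from the same arrays, 26 groups of values were examined, and chance alone gives about 1 such case in 20. The summed scaled signal of the striated muscle miRNAs was 38.6 in NcstnΔKC 1, against 6.44 to 13.2 in the other NcstnΔKC arrays, and its part in these ratios was not tested.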

How the results depend on the processing

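The 3 ratios between clusters kept their direction in all 21 alternatives, at 1.07 to 1.73 for miR-99b-5p over miR-99a-5p, 1.16 to 2.27 over miR-100-5p and 0.80 to 1.35 for miR-125a-5p over miR-125b-5p. Some of these alternatives are no check on the 3 ratios. Division by a factor per array and the replicate block cannot change their differences, and the floors and the software's totals left them the same. Without each array in turn they gave 1.26 to 1.46, 1.59 to 1.88 and 0.99 to 1.16, with adjusted permutation p of 0.0571 to 0.0667. The p doubles the smaller tail, so 3 against 4 arrays cannot go below 0.0571. With normexp the 3 ratios (1.07, 1.16 and 0.94) and that of miR-100-5p to miR-125b-5p (-0.20) each had an adjusted p of 0.05, not under the threshold. The ratio of miR-99a-5p to miR-125b-5p missed it with cyclic loess (-0.30, adjusted exact permutation p = 0.0667), normexp (-0.11, 0.08), the brightest probe (-0.18, 0.1) and the authors' log2 values (-0.18, 0.114), as did miR-99b-5p over miR-125a-5p with normexp (0.013, 0.543) and the mean of log2 over probes (0.086, 0.0857). Counts of called miRNAs moved more (limma, 95 in all, 33 higher and 62 lower). The percentile over all probes gave 12, 12 and 0, the software's totals 52, 19 and 33, no filter 19, 8 and 11, array weights 149, 52 and 97, and detection on all arrays 61 with 34 lower. Higher against lower calls were 38 to 32 with quantile normalization, 41 to 30 with cyclic loess, 24 to 101 with no scaling, 18 to 91 with the 4 control RNAs, which the labels do not identify as spike-ins, 36 to 28 with normexp and 36 to 36 with the authors' values. Leaving out 1 array gave 59 to 94 called, 24 to 33 higher and 35 to 62 lower, the lowest (59, with 35 lower) without NcstnΔKC 3. The percentile over all probes reversed miR-99a-5p (0.15), miR-125b-5p (0.34) and miR-125a-3p (0.81), and ended the calls of miR-99b-5p (1.47, adjusted p = 0.204), miR-125a-5p (1.38, 0.223) and miR-100-5p (-0.20, 0.893). On these arrays that percentile lies at 0.826 to 6.54, below the signal of any detected miRNA. miR-125a-3p, never called, also turned positive with quantile normalization (0.093), cyclic loess (0.14), normexp (0.14), the mean of log2 (0.0063), the authors' values (0.13), and without NcstnΔKC 2 (0.0030), NcstnΔKC 3 (0.034) or normal 2 (0.0041), with -0.19 to 0.034 over leaving out each array. The software's totals ended the call of miR-125a-5p (0.42, adjusted p = 0.0838). Other causes were not tested. The labels do not say whether same-numbered samples were paired. Their deviations from the group means gave r = -0.44, 0.20, -0.26 and -0.23, and those of differently numbered samples -0.44 to 0.59. With so few samples these values cannot settle whether the numbers pair them. With the replicate block 71 miRNAs were called (28 higher, 43 lower), the adjusted p of miR-125a-5p was 0.0539 and that of miR-125b-5p 0.0541, and the smallest p for a ratio is 0.125.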
